A study of Mus musculus with 6 samples.

Results

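The 10 genes described here build the 2 antigen presentation pathways of the major histocompatibility complex (MHC), 5 for class I (H2-K1, H2-D1, B2m, Tap1 and Psmb8) and 5 for class II (H2-Aa, H2-Ab1, H2-Eb1, Cd74 and Ciita). They were chosen by symbol and were all found, each once, among the 34745 genes of the deposited tables. They were measured by RNA-seq in primary hepatocytes of male, 12-week-old FOXA2f/f mice, whose Foxa2 alleles are floxed, 3 libraries per group. FOXA2f/f+CCl4 mice received AAV8-TBG-Control, and FOXA2H-KO+CCl4 mice received AAV8-TBG-Cre, in which the TBG promoter, active in hepatocytes, drives Cre. The virus was given by tail vein 2 weeks before CCl4. All mice of both groups then received CCl4, a hepatotoxin that produces liver fibrosis, at 0.25 ml/kg, 2 times a week for 4 weeks, and were killed on day 3 after the last injection. The hepatocytes were obtained by collagenase perfusion, sieving and low-speed centrifugation, with no sort described, so that other liver cells may be present in the libraries. Since Cre is driven in hepatocytes, the deletion does not address those other cells. Labels number the replicates 1, 2 and 4 in each group. The comparison asked whether hepatocyte-specific loss of FOXA2 in fibrotic liver altered the transcripts of antigen presentation.

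Class I molecules sit on nearly all nucleated cells and show peptides made in the cytosol to CD8 T cells. Their heavy chain (H2-K1, H2-D1) pairs with beta-2-microglobulin (B2m), the immunoproteasome subunit Psmb8 cuts peptides, and the transporter Tap1 moves them into the endoplasmic reticulum. Class II molecules are made mainly by dendritic cells, macrophages and B cells and show peptides from taken-up material to CD4 T cells. They are pairs of an alpha chain (such as H2-Aa) and a beta chain (H2-Ab1, H2-Eb1) that travel with the invariant chain (Cd74), and their genes are switched on by the coactivator Ciita. In the liver, Kupffer cells and sinusoidal endothelial cells also carry class II, whereas resting hepatocytes carry class I and little class II.

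The promoters of both classes share an X box and a Y box to which RFX, CREB and NF-Y proteins bind, and class I promoters also hold an NF-kappa-B element, named enhancer A, and an interferon response element. Promoter sequences were read from RefSeq (GRCm38.p6, 250 bases before to 50 bases after the annotated start), which held 7 of the 10 genes. The 5 sequences below are the heavy chains and B2m for class I and, for class II, the alpha chain H2-Aa and the beta chain H2-Eb1. H2-Aa and H2-Eb1 are chains of different molecules, and H2-Ab1, the partner of H2-Aa, was not among the 7. All 5 sequences are shown because they carry the letters that the classes share and those that they do not. They lie at chr17:34000298-34000597 (- strand) for H2-K1, chr17:35262844-35263143 (+ strand) for H2-D1, chr2:122147437-122147736 (+ strand) for B2m, chr17:34287774-34288073 (- strand) for H2-Aa and chr17:34305617-34305916 (+ strand) for H2-Eb1, each printed in the direction of transcription. Capitals mark the 6 letter patterns searched on both strands, which are CCAAT (Y box core, ATTGG on the other strand), TGACG (X2 box core, CGTCA on the other strand), GGGGA followed after 1 free base by TCCCC (enhancer A palindrome), GAAA followed after 2 free bases by GAAA (interferon response element core), and TGTTTAC and TATTTAC (forkhead cores).
H2-K1: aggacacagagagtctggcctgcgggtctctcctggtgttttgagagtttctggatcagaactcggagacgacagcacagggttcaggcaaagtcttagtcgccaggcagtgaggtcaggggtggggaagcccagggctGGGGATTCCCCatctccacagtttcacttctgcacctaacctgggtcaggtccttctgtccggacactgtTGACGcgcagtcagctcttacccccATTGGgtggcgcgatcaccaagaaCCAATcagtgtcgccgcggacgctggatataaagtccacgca
H2-D1: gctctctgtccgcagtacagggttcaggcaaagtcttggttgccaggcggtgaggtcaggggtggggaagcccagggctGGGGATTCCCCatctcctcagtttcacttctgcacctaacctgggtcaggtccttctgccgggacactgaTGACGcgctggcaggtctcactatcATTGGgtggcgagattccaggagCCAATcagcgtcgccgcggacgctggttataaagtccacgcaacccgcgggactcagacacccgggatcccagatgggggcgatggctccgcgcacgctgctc
B2m: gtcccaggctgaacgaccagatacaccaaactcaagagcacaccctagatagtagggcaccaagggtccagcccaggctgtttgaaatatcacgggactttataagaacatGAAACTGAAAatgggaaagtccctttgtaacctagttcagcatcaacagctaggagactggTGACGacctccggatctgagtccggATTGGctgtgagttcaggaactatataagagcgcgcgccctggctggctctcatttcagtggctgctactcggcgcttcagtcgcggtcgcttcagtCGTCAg
H2-Aa: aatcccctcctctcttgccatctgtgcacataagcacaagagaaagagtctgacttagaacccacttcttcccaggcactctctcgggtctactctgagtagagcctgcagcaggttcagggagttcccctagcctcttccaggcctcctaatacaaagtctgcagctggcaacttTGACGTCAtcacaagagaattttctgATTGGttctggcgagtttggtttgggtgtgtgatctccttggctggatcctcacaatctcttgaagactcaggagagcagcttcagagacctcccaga
H2-Eb1: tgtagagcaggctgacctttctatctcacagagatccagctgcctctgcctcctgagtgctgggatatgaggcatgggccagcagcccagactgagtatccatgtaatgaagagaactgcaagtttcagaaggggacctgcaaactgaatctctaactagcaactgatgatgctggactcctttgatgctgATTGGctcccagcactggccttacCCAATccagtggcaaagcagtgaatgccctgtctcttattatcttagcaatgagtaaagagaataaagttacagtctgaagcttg

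The enhancer A palindrome stood in the windows of H2-K1 and H2-D1, and in 16 of all 32851 promoters (0.0487%), which belong to 15 genes, among them the class I heavy chain gene H2-Q6. In H2-K1 it began at base -111 and in H2-D1 at base -171 from the annotated start, while TGACG followed 70 bases after its first base in both. The 2 windows were 88.3% identical over 239 aligned bases. The interferon response element core, in the exact letters searched, was found in the B2m window alone among the 7 and in 3.44% of all promoters. Looser forms of this element and of enhancer A were not searched, so a window without a match may still hold one. CCAAT was found in 6 of the 7 windows, all but Psmb8, and in 37.4% of all promoters, and TGACG in 5 of the 7 and in 20.8%. The RefSeq start lay 474 bases from the GENCODE M21 gene start for Psmb8 and 364 bases for H2-D1, and at most 3 bases for the other windows. The lack of matches in Psmb8 and the positions in H2-K1 and H2-D1 hold for the RefSeq start. The plus-strand CCAAT lay at bases 8 to 12 in H2-K1, after the annotated start, and at -53 to -49 in H2-D1. The 2 annotated starts thus stand at different places of the aligned sequence, and the positions -111 and -171 differ with them. A TGACG was followed by ATTGG, first base to first base, at 25 bases in H2-K1, H2-D1 and B2m and at 26 bases in H2-Aa, so class I and class II genes shared this arrangement. It was looked for after the sequences had been seen, and 31 of all promoters (0.0944%) held it at 25 or 26 bases. H2-Eb1 held ATTGG without TGACG. In H2-Aa a TGACG on each strand overlapped. TGTTTAC was in 3.65% and TATTTAC in 3.04% of all promoters and in 0 of the 7 windows. These are matches of letters only, and the study measured no binding.

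Total counts were between 20983455 and 28327765 per library, and 14417 genes passed the filter on low counts and were tested, the 10 MHC genes among them. Foxa2, the deleted gene, had 442, 246 and 516 counts in FOXA2f/f replicates 1, 2 and 4 and 28, 19 and 35 in the FOXA2H-KO replicates, with a log2 fold change of -3.85 (SE 0.31, edgeR quasi-likelihood adjusted p = 0.0313), a call that was lost in 5 of the 6 fits with a library left out. It was the only gene called at an adjusted p under 0.05 and a fold of at least 2 (1 of 14417, 0.00694%). Hepatocyte markers summed to 126365 to 179694 CPM (counts per 1000000 of the library size, adjusted by TMM), and albumin alone to between 83490 and 124578 CPM. FOXA2f/f replicates 2 and 4 stood at opposite ends for the markers of most other liver cell types, as given with the class II results.

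None of the 10 MHC genes differed between FOXA2H-KO and FOXA2f/f hepatocytes at the threshold. Class I transcripts stayed within 1.42 to 1.797 times between the highest and the lowest library, and class II transcripts varied by 4.85 to 6.05 times, nearly all of it within the groups. With edgeR 0 of 10 were called, against 0.00694% of all genes, and 0 of 10 had an unadjusted p under 0.05, against 5.17%. DESeq2 and edgeR's exact test, which called 0.486% and 0.444% of all genes, also called 0 of the 10. The median log2 fold change (FOXA2H-KO minus FOXA2f/f) was 0.07 over the 5 class I genes and 0.02 over the 5 class II genes, against -0.01 over all genes. A fitted change above 0 was found in 4 of 5 class I and 3 of 5 class II genes, against 47.8% of all genes.

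**Figure D1:**
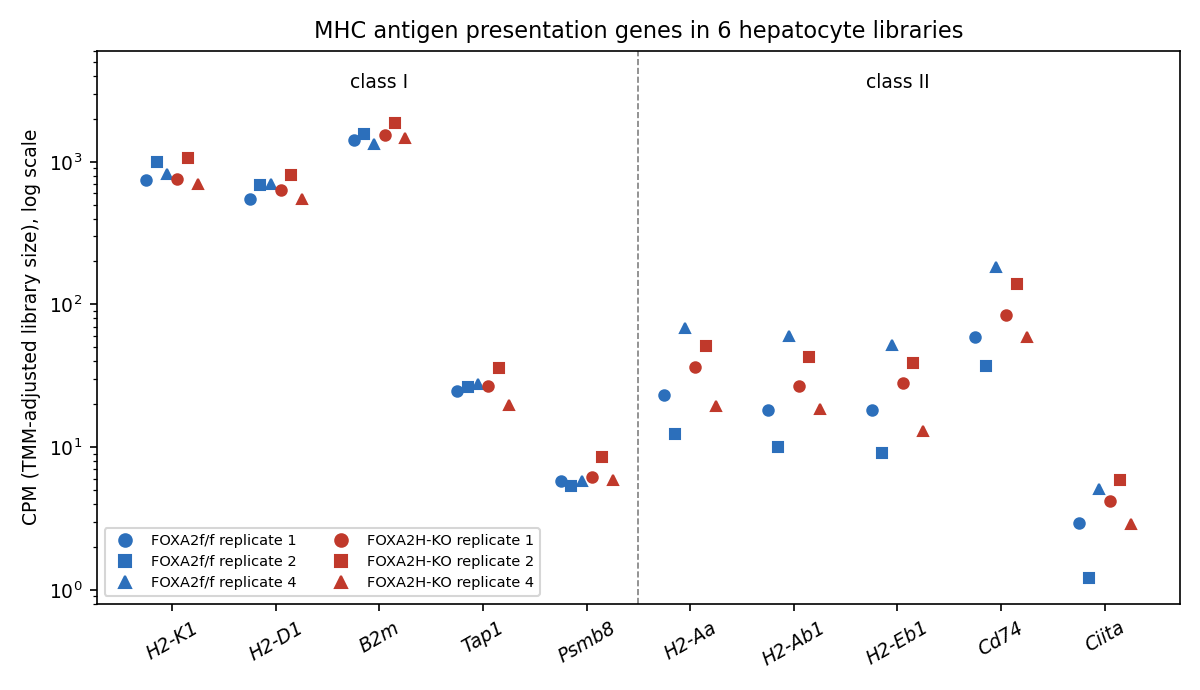
CPM (log axis) of the 10 MHC genes in each library, with FOXA2f/f in blue and FOXA2H-KO in red and 1 marker shape per replicate number. The points of each class I gene lie close together, from 1.42 to 1.797 times between the highest and the lowest, while in 4 of the 5 class II genes FOXA2f/f replicate 4 is highest, and in all 5 FOXA2f/f replicate 2 is lowest.

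The class I heavy chain H2-K1 was at 743, 997 and 815 CPM in FOXA2f/f replicates 1, 2 and 4 and at 758, 1063 and 696 CPM in the FOXA2H-KO replicates. The groups overlapped, with the highest and the lowest library both in FOXA2H-KO. Its log2 fold change was -0.02 (SE 0.23, 95% interval -0.55 to 0.51, adjusted p = 0.998 by edgeR). H2-D1, the other classical heavy chain, had 547, 690 and 695 CPM in FOXA2f/f and 639, 804 and 547 CPM in FOXA2H-KO libraries. FOXA2H-KO replicate 2 was again highest and the groups overlapped, with a log2 fold change of 0.04 (SE 0.21, adjusted p = 0.995 by edgeR). The 2 heavy chains moved together from library to library, with a CPM ratio of 1.17 to 1.45 in the 6 libraries and an SD of their log2 difference of 0.12. They share some sequence with each other, and the part of shared reads in this was not tested.

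B2m, the light chain of every class I molecule, had 1420, 1574 and 1327 CPM in FOXA2f/f and 1551, 1881 and 1461 CPM in FOXA2H-KO libraries. It had the smallest range of the 10 genes, 1.42 times, and the groups overlapped. The log2 fold change was 0.18 (SE 0.20, 95% interval -0.28 to 0.64, adjusted p = 0.983 by edgeR).

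Tap1 was at 24.7, 26.2 and 27.5 CPM in FOXA2f/f and at 26.8, 35.6 and 19.8 CPM in FOXA2H-KO libraries, so the FOXA2f/f libraries lay inside the FOXA2H-KO range. The fit gave Tap1 a log2 fold change of 0.07 (SE 0.21, adjusted p = 0.993 by edgeR). Psmb8 was at 5.76, 5.32 and 5.75 CPM in FOXA2f/f and at 6.18, 8.50 and 5.87 CPM in FOXA2H-KO libraries. Every FOXA2H-KO value was above every FOXA2f/f value, and Psmb8 was the single MHC gene of the 10 without overlap, against 4.54% of all genes in this direction. In the other direction it was 0 of 10, against 5.96%, and in either direction 10.5% of all genes. For Psmb8 the log2 fold change was 0.29 (SE 0.21, 95% interval -0.20 to 0.78, adjusted p = 0.983 by edgeR). On the FPKM scale, which is divided by the total count and has no TMM adjustment, its groups overlapped, with 1.66 in FOXA2f/f replicate 4 and 1.51 in FOXA2H-KO replicate 4. Psmb8 shares 14.7% of its exon bases with Gm20496 on the opposite strand, and the strand setting of the counting is not given. Its count may therefore include reads of Gm20496 or lack reads from the shared bases. Gm20496 had 0 to 2 counts of its own.

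The class II alpha chain gene H2-Aa had 23.3, 12.3 and 68.1 CPM in FOXA2f/f replicates 1, 2 and 4 and 36.7, 51.2 and 19.3 CPM in the FOXA2H-KO replicates. The FOXA2f/f libraries held both the lowest and the highest value, and the FOXA2H-KO libraries lay between them. Its log2 fold change was 0.04 (SE 0.60, 95% interval -1.35 to 1.44, adjusted p = 0.999 by edgeR). The beta chain gene H2-Ab1 had the same highest and lowest libraries, with 18.3, 9.98 and 60.4 CPM in FOXA2f/f and 26.7, 42.6 and 18.6 CPM in FOXA2H-KO libraries, and a log2 fold change of -0.02 (SE 0.61). H2-Eb1, the second beta chain gene, had 18.3, 9.10 and 52.4 CPM in FOXA2f/f and 28.2, 38.6 and 13.0 CPM in FOXA2H-KO libraries. Its log2 fold change was -0.00 (SE 0.62), again with the FOXA2H-KO libraries inside the FOXA2f/f range.

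Cd74, the invariant chain that blocks the peptide groove until the endosome, had the highest level per length of the class II genes. It was at 59.0, 36.7 and 183 CPM in FOXA2f/f and at 84.6, 139 and 59.5 CPM in FOXA2H-KO libraries, with a log2 fold change of 0.02 (SE 0.58). Ciita, the coactivator, was at 2.92, 1.21 and 5.12 CPM in FOXA2f/f and at 4.16, 5.85 and 2.87 CPM in FOXA2H-KO libraries. Here FOXA2H-KO replicate 2 was highest and not FOXA2f/f replicate 4, and FOXA2f/f replicate 2 was again lowest. Its log2 fold change of 0.46 (SE 0.50, 95% interval -0.70 to 1.62, adjusted p = 0.983 by edgeR) was the highest of the 10 and lay within its error. Ciita shares 3.45% of its exon bases with Dexi on the opposite strand.

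**Figure D2:**
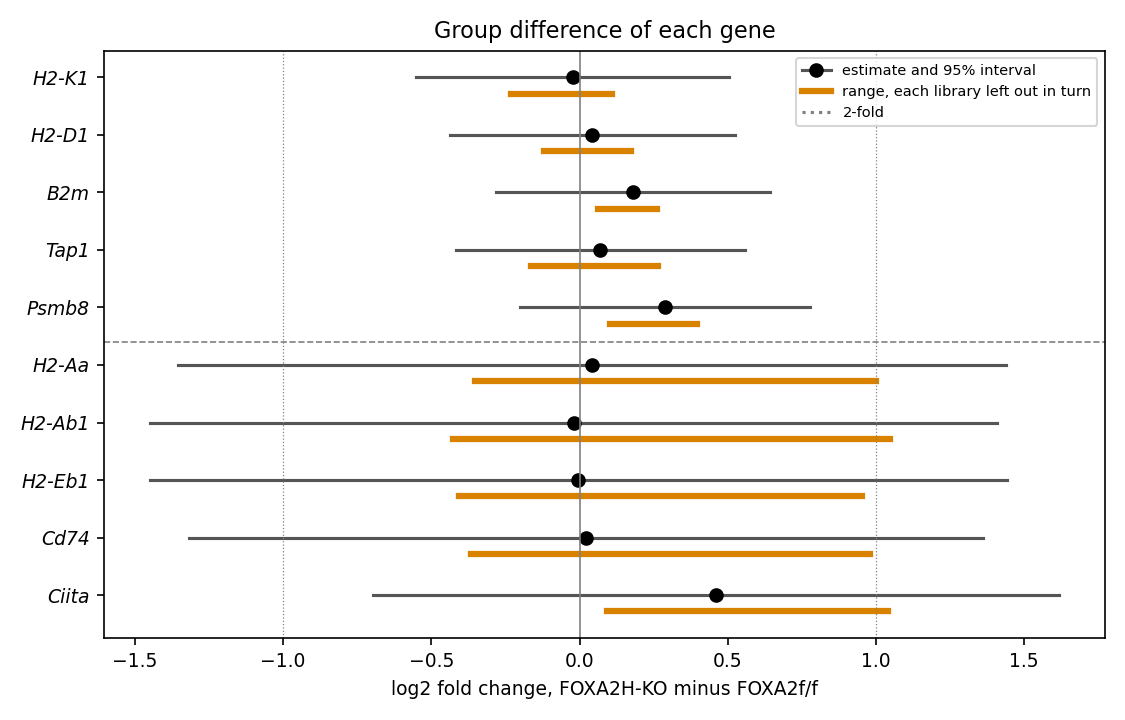
Log2 fold change of each gene, FOXA2H-KO minus FOXA2f/f, with its 95% interval from edgeR (grey), the range when each library is left out in turn (orange) and the 2-fold lines (dotted). The intervals of the 5 class I genes lie inside the 2-fold lines, from -0.55 to 0.78, and those of the 5 class II genes reach beyond 1.

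The precision of the comparison differed between the classes. For the 5 class I genes the 95% intervals ran from -0.55 to 0.78 at the widest, so a 2-fold change in either direction lay outside each of them. For the class II genes the intervals spanned from -1.45 to 1.62, so a 2-fold increase lay inside all 5 of them and a 2-fold decrease inside all but that of Ciita. The class II estimates depended on single libraries. Without FOXA2f/f replicate 4 they were between 0.95 and 1.05, with a median of 1.00, and 0 of 5 were called by edgeR (smallest adjusted p = 0.258, H2-Ab1). In that fit H2-Ab1 (1.05, SE 0.39, 95% interval 0.14 to 1.95), Cd74 (0.98, SE 0.37) and H2-Aa (1.00, SE 0.42) had an unadjusted p under 0.05, as did 16.6% of all genes. Without FOXA2f/f replicate 2 they lay below 0 for the chains and Cd74, with -0.43 for H2-Ab1 and -0.41 for H2-Eb1, and at 0.09 for Ciita.

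The spread within a group was the clearest difference in behavior between the 2 classes. Over the 12882 tested genes with a mean of at least 1 CPM, the median within-group SD of log2 CPM was 0.24. The class I genes had SDs of 0.16 (B2m), 0.21 (Psmb8), 0.24 (H2-D1), 0.28 (H2-K1) and 0.30 (Tap1), at percentiles 24.9 to 62.7 of these genes. Class II SDs were 0.80 (Ciita), 0.95 (Cd74), 1.01 (H2-Aa), 1.02 (H2-Ab1) and 1.06 (H2-Eb1), at percentiles 95.4 to 98.6. An SD above 1 was found in 1.801% of the genes. These SDs are given as a description and the difference between the classes was not tested.

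**Figure D3:**
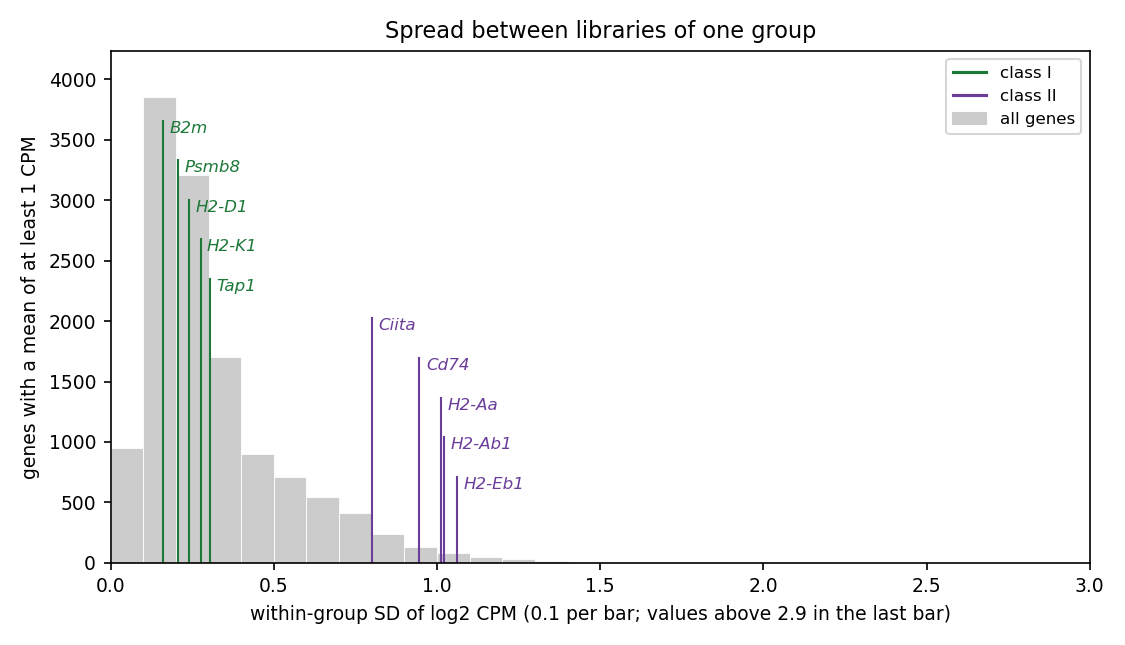
Histogram of the within-group SD of log2 CPM over 12882 genes (grey bars, x axis in log2 units, y axis in genes), with vertical lines for the 10 MHC genes whose heights only separate the names. Class I lines (green, 0.16 to 0.30) stand in the bulk of the histogram and class II lines (purple, 0.80 to 1.06) in its right tail.

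Within class II the chains and Cd74 varied less against each other than in level. The SD of the log2 difference was 0.08 between H2-Aa and H2-Eb1, whose CPM ratio was 1.27 to 1.48 in the 6 libraries, and 0.09 between H2-Ab1 and Cd74, with a ratio of 0.27 to 0.33. H2-Aa and H2-Ab1, the 2 chains of 1 molecule, had an SD of 0.14. The widest pairs among these 4 genes were H2-Ab1 and H2-Eb1, with an SD of 0.21 and a ratio of 0.95 to 1.43, and H2-Eb1 and Cd74, with 0.22 and a ratio of 0.22 to 0.33. Ciita stood further from the genes it controls, at 0.33 to 0.38, with a ratio of H2-Eb1 to Ciita of 4.55 to 10.2. It also had the fewest counts, 22 to 161 per library, against at least 166 for the chains and Cd74. The part of counting noise in its wider SD was not tested. Between a class I and a class II gene the SD was 0.66 to 0.97.

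The genes whose pattern over the 6 libraries was most like the class II sum (H2-Aa, H2-Ab1, H2-Eb1 and Cd74), by the SD of the log2 difference, were Nlrp1a (0.16), Gm5150 (0.17), Cd163 (0.18), Cadm3 (0.20) and H2-DMa (0.21), where the median over 12872 genes was 0.95. Cd163 is a scavenger receptor of macrophages, Nlrp1a an inflammasome sensor, and H2-DMa a chain of the molecule that loads peptides onto class II. For the class I sum (H2-K1, H2-D1 and B2m) they were Yaf2 (0.07), Pcf11 (0.07), Irgm1 (0.08), Slirp (0.08) and Prnp (0.08), with a median of 0.30. Irgm1 is a GTPase induced by interferon. A gene that varies little is close to the class I sum by this measure whatever its function.

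To compare levels between genes, counts per length are needed, and the deposited FPKM gives them. In the mean of the 6 libraries the order was B2m (1790 FPKM), H2-D1 (212), H2-K1 (116), Cd74 (48.6), H2-Eb1 (23.5), H2-Aa (14.3), H2-Ab1 (13.0), Tap1 (2.30), Psmb8 (1.63) and Ciita (0.73). The ranges over libraries were apart between B2m and H2-D1, between H2-D1 and H2-K1, between H2-Ab1 and Tap1, and between Psmb8 and Ciita. The other neighbours had overlapping ranges, with H2-Aa above H2-Ab1 in 5 of 6 libraries and the rest in the same order in 6 of 6.

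Part of this order came from the gene length in the deposited FPKM. The length that the FPKM implies matched, within 1%, the sum of all distinct exon records with overlaps counted again for 68.5% of 12033 genes, against 9.37% for the union of the exons. For H2-K1 it was 7271 bases, where the union is 2938 bases (2.48 times), and for Tap1 11741 against 5476 bases, while for H2-Aa it was 2562 against 3798 bases. Rescaled to the exon union, H2-K1 (288) stood above H2-D1 (255), Tap1 rose to 4.93 and H2-Ab1 (12.0) stood above H2-Aa (9.66), and the positions of the other genes in the order did not change. This rescaling was chosen after the data had been seen. It changes levels between genes and, for a single gene, no difference between libraries. In sums over genes it changes the weight of each gene, so differences between libraries can shift.

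**Figure D4:**
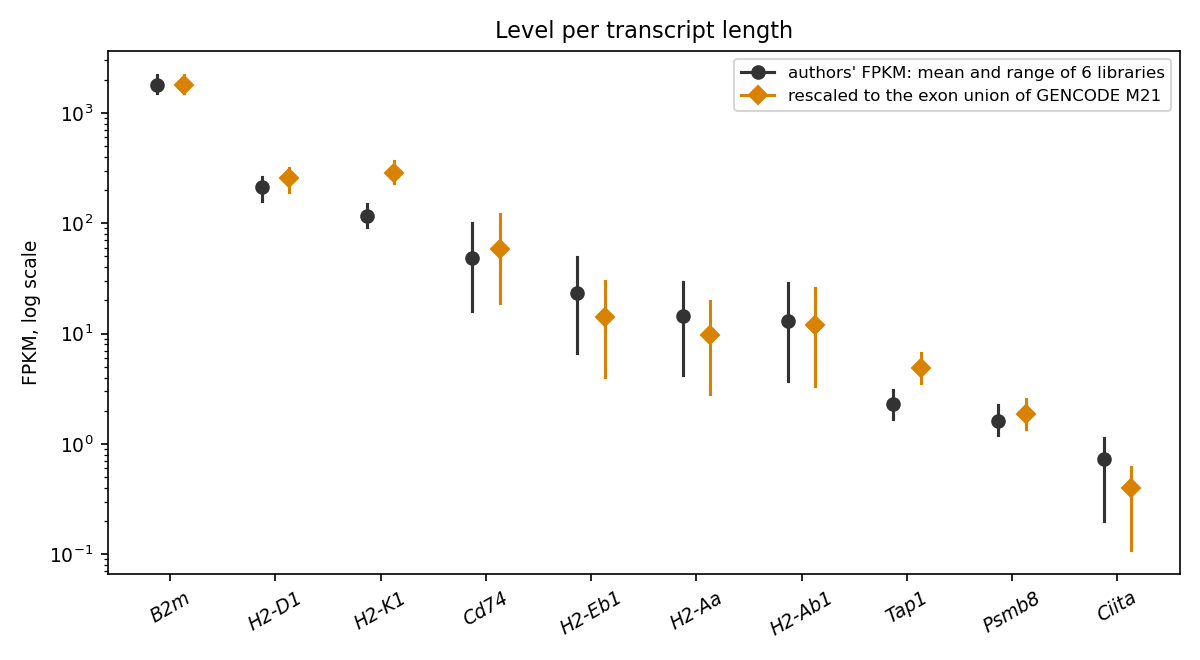
FPKM on a log axis for the 10 MHC genes, as deposited (grey) and rescaled to the exon union length of GENCODE M21 (orange), with the mean as a point and the range of the 6 libraries as a line. H2-K1 moves from 116 to 288 and passes H2-D1, and Tap1 moves from 2.30 to 4.93.

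Summed over the chains and Cd74, class II was at 56.2, 30.5 and 209 FPKM in FOXA2f/f replicates 1, 2 and 4 and at 103, 143 and 55.8 FPKM in the FOXA2H-KO replicates. The class I sum of H2-K1, H2-D1 and B2m was at 1755, 1903 and 2087 FPKM in FOXA2f/f and at 2373, 2638 and 1955 FPKM in FOXA2H-KO libraries. Class II was therefore 3.20%, 1.60% and 9.997% of class I in FOXA2f/f libraries and 4.34%, 5.41% and 2.85% in FOXA2H-KO libraries. The mean was 4.93% ± 4.46 (SD, n = 3) against 4.20% ± 1.28 (SD, n = 3), a difference smaller than the spread within FOXA2f/f, whose lowest and highest values enclosed all FOXA2H-KO values. The level depended on the gene length used. With the exon union length the means were 4.20% in FOXA2f/f and 3.62% in FOXA2H-KO, and with summed CPM 6.43% and 5.77%. The direction depended on the scale, since the mean of the log2 percentages was 0.13 higher in FOXA2H-KO libraries (within-group SD 1.00). It also depended on single libraries, with a log2 difference of 0.84 without FOXA2f/f replicate 4 and -0.48 without FOXA2f/f replicate 2.

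Transcripts of most other liver cell types varied between the libraries with the class II genes. Neutrophil and cholangiocyte markers, given below, were highest in other libraries. The 5 pan-leukocyte markers, among them Ptprc (CD45) and Laptm5, summed to 136, 71.8 and 285 CPM in FOXA2f/f replicates 1, 2 and 4 and to 259, 206 and 175 CPM in the FOXA2H-KO replicates. The 16 macrophage markers, led by Cd5l, summed to 1619, 750 and 3345 CPM in FOXA2f/f and to 2585, 2366 and 1715 CPM in FOXA2H-KO libraries. FOXA2f/f replicate 4 was highest and FOXA2f/f replicate 2 lowest in both sums, as for the class II chains. The same 2 libraries were at the ends for dendritic cell markers (10.7 to 51.5 CPM, led by Itgax), T and NK cell markers (0.82 to 6.58 CPM, led by Cd4), sinusoidal endothelial markers (333 to 1148 CPM, led by Stab1) and stellate cell markers (1133 to 2958 CPM, led by Col3a1). B cell markers ran from 5.59 CPM in FOXA2f/f replicate 2 to 20.6 CPM in FOXA2H-KO replicate 1, with Cd22 highest. The part of these cells in the class II levels was not tested, and in such bulk libraries fewer cells of a type and less RNA per cell cannot be told apart.

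The marker sums did not follow class II in every library. Class II CPM per leukocyte marker CPM was 0.87, 0.95 and 1.28 in FOXA2f/f and 0.68, 1.32 and 0.63 in FOXA2H-KO libraries, so the 5.34-fold range of the class II sum became a smaller one with FOXA2H-KO replicate 2 at the top. Per macrophage marker CPM it was between 0.064 (FOXA2H-KO replicate 4) and 0.115 (FOXA2H-KO replicate 2). The range was also smaller per stellate marker CPM (0.060 to 0.155) and per sinusoidal endothelial marker CPM (0.150 to 0.378). FOXA2H-KO replicate 2 was at the top of both, so a smaller range was not particular to immune cell markers. Per neutrophil marker CPM (0.88 to 8.12) and per cholangiocyte marker CPM (0.19 to 1.57) the range was wider than that of the class II sum. Of the tested markers, 5 of 5 leukocyte, 14 of 16 macrophage, 9 of 9 dendritic cell and 9 of 9 B cell genes had a fitted change above 0 in FOXA2H-KO, against 47.8% of all genes. Their median log2 fold changes were 0.38, 0.32, 0.43 and 0.78, and 0 were called by edgeR, against 0.00694% of all genes. Unadjusted p-values under 0.05 by edgeR were found for 0, 1 (Ccr2), 1 (Siglech) and 0 of them, against 5.17%. The groups did not overlap for 0, 1, 2 and 0 of them, all higher in FOXA2H-KO, against 4.54% of all genes. Neutrophil markers mostly went the other way, with sums of 135, 11.8 and 84.3 CPM in FOXA2f/f and 27.8, 33.4 and 20.6 CPM in FOXA2H-KO libraries. FOXA2f/f replicate 2 was below every FOXA2H-KO library, and only Ngp did not overlap between the groups (1 of 10, lower, against 5.96% of all genes). By edgeR 7 of 10 genes had an unadjusted p under 0.05, all lower, against 5.17% of all genes. A fitted change above 0 was found for 2 of 10, among them Csf3r, the highest in CPM, at 0.29. None of the neutrophil genes was called by edgeR's quasi-likelihood test. DESeq2 called 3 of them as lower (Elane, Ltf and Ngp) and the exact test 2 (Ltf and Ngp), against 0.486% and 0.444% of all genes. Cholangiocyte markers, led by Spp1, summed to 174 to 367 CPM in FOXA2f/f and 252 to 708 CPM in FOXA2H-KO libraries. A fitted change above 0 was found for 5 of 5 tested genes, against 47.8% of all genes. By edgeR 2 (Krt7 and Spp1) had an unadjusted p under 0.05, against 5.17%, and 0 were called. The groups did not overlap for 2 of the 5, both higher in FOXA2H-KO, against 4.54% of all genes. The remaining lists gave 6 of 12 sinusoidal endothelial, 10 of 12 stellate, 3 of 4 T and NK cell and 2 of 12 hepatocyte genes above 0, none with an unadjusted p under 0.05. Of these, 1 stellate gene did not overlap between the groups, lower in FOXA2H-KO, against 5.96% of all genes. No marker of these lists was at 0 in all libraries.

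**Figure D5:**
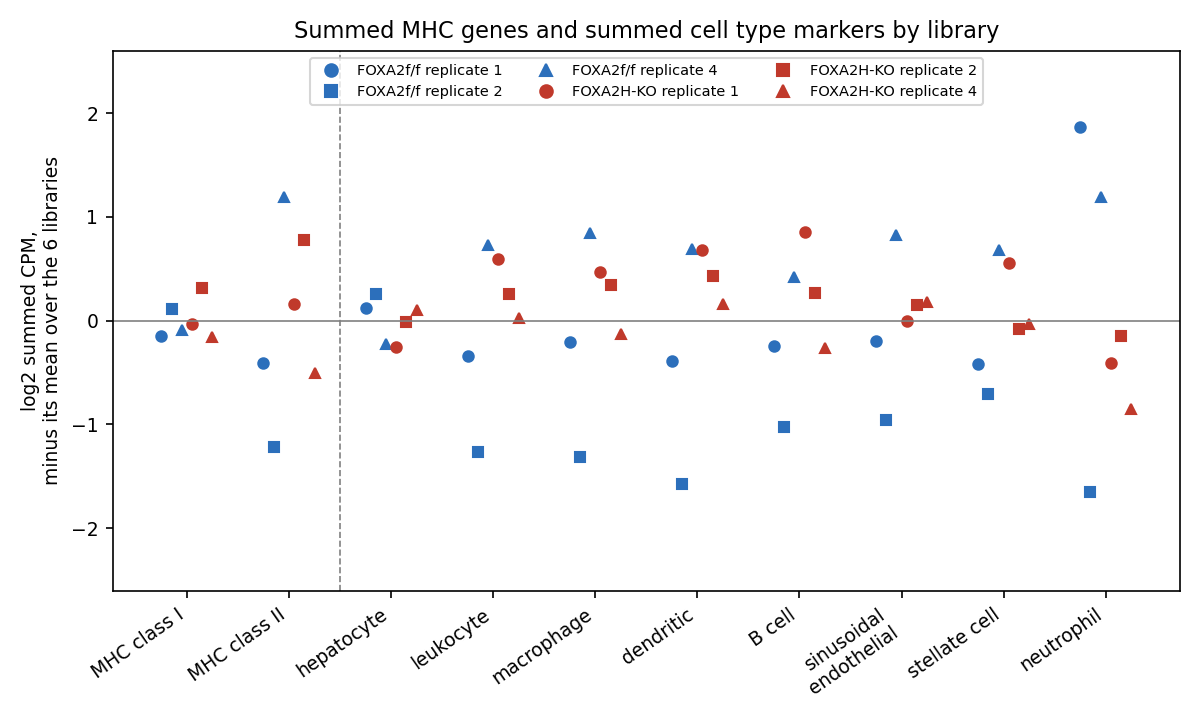
Log2 of the summed CPM of each gene list in each library, minus its mean over the 6 libraries, for the 5 class I and 5 class II genes and for 8 cell type marker lists (FOXA2f/f blue, FOXA2H-KO red). The class I sum and the hepatocyte markers vary by 1.39 and 1.42 times, the class II sum by 5.32 and the macrophage markers by 4.46 times, with FOXA2f/f replicate 2 lowest in both of the last.

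Beside the lists that follow, 47.8% of all genes had a fitted change above 0 and 5.17% an unadjusted p under 0.05 by edgeR. The further class I heavy chains did not move as a group. Of 14 tested, 8 had a fitted change above 0 and 6 below, with a median log2 fold change of 0.04, 0 called by edgeR and 1 with an unadjusted p under 0.05. The 3 highest in CPM were H2-Q10, which encodes a secreted class I molecule of the liver, at 1307 to 1674 CPM in FOXA2f/f and 1096 to 1348 CPM in FOXA2H-KO libraries (log2 fold change -0.22, SE 0.20), H2-T23 (Qa-1) at 0.14 (SE 0.17) and the lipid-presenting Cd1d1 at -0.25 (SE 0.19). The lowest change was H2-Q1 at -0.35 (SE 0.35), and the highest was H2-M2 at 1.68 (SE 0.70, unadjusted p = 0.0450, adjusted p = 0.941 by edgeR), which had 0.26, 0.16 and 1.18 CPM in FOXA2f/f and 2.50, 1.97 and 0.97 CPM in FOXA2H-KO libraries, with overlap. H2-T3 was at 0 in all libraries, where 3 counts would have been 0.106 to 0.143 CPM of the total count. Reads that match several heavy chains make the values of H2-D1 and H2-K1 uncertain: 7.10% of the 75-base windows of H2-D1 and 1.55% of those of H2-K1 also occur in other genes, among them H2-Q7 and H2-Q1. For the further heavy chains this share was not computed.

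Peptide supply and loading gave 3 of 11 genes above 0 and 8 below, with a median of -0.09, 0 called by edgeR and 0 with an unadjusted p under 0.05. The 3 highest in CPM were the endoplasmic reticulum chaperones Calr, Pdia3 and Canx, with log2 fold changes of -0.37 (SE 0.22), -0.35 (SE 0.24) and -0.10 (SE 0.20). Calr was the lowest of the list, and its highest library was FOXA2f/f replicate 2 at 959 CPM, where the other FOXA2f/f libraries had 584 and 662 CPM and the FOXA2H-KO libraries 543 to 607 CPM. The immunoproteasome subunit Psmb10 was highest in change at 0.03 (SE 0.17). Psmb9, the neighbor that overlaps Tap1 over 3.87% of its exon bases, had -0.02 (SE 0.25).

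The other class II genes varied with the class II members. Of 8 tested, 7 were above 0 and 1 below, with a median of 0.34, 0 called by edgeR and 0 with an unadjusted p under 0.05, and FOXA2f/f replicates 4 and 2 were the highest and lowest in their sum, at 712 and 223 CPM. Lgmn, Ctss and Ifi30, a protease of the endosome, the protease that trims the invariant chain and a thiol reductase, were highest in CPM, with log2 fold changes of 0.25 (SE 0.33), 0.40 (SE 0.48) and 0.12 (SE 0.35). Ctss was at 123, 65.4 and 273 CPM in FOXA2f/f and at 265, 194 and 152 CPM in FOXA2H-KO libraries, so FOXA2H-KO replicate 1 stood nearly as high as FOXA2f/f replicate 4, unlike in the chains. H2-DMa had the lowest change, -0.02 (SE 0.56), and H2-Ob, whose product restrains H2-DM, the highest, 0.72 (SE 0.61).

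The factors that act on MHC promoters had 4 of 8 genes above 0 and 4 below, with a median of 0.02, 0 called by edgeR and 0 with an unadjusted p under 0.05. Creb1, which binds the X2 box, was the highest in CPM and in change, at 0.21 (SE 0.16). Nlrc5, the class I coactivator and counterpart of Ciita, was at 36.8, 20.01 and 32.6 CPM in FOXA2f/f and at 31.2, 30.2 and 23.4 CPM in FOXA2H-KO libraries (log2 fold change -0.08, SE 0.24). The NF-Y subunits Nfyc and Nfyb had -0.08 (SE 0.12) and -0.17 (SE 0.15), the latter the lowest of the list.

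Interferon gamma is the main inducer of both classes. Its receptors, signaling genes and targets gave 16 of 21 genes above 0 and 5 below, with a median of 0.16, 0 called by edgeR, 1 with an unadjusted p under 0.05 and 2 without overlap between groups, Jak2 and Tgtp1, both higher, where 4.54% of all genes did not overlap in this direction and 10.5% in either. The cytokine itself, Ifng, had 0 to 0.16 CPM and did not pass the filter. The highest in CPM were Iigp1, at 419, 346 and 214 CPM in FOXA2f/f and 261, 370 and 403 CPM in FOXA2H-KO libraries (log2 fold change 0.08, SE 0.28), Jak1 (-0.04, SE 0.13) and Ifngr1 (0.20, SE 0.23). Cxcl10, a chemokine that interferon induces, was lowest at -0.31 (SE 0.30). Tgtp1, a GTPase of the same response, was highest at 1.23 (SE 0.43, unadjusted p = 0.0220, adjusted p = 0.836 by edgeR), with 2.36, 2.96 and 4.10 CPM in FOXA2f/f and 4.41, 12.5 and 5.36 CPM in FOXA2H-KO libraries. Its groups did not overlap, and FOXA2H-KO replicate 2, the library with the highest H2-K1, H2-D1, B2m, Tap1 and Psmb8, was also the highest for Tgtp1.

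The costimulatory molecules that accompany class II on antigen-presenting cells were low. Cd86 was at 6.14, 4.11 and 13.4 CPM in FOXA2f/f and at 11.6, 10.8 and 8.32 CPM in FOXA2H-KO libraries (log2 fold change 0.36, SE 0.41), again between the 2 extreme FOXA2f/f libraries. Cd80 had 0.72 (SE 0.70) and Cd40 -0.32 (SE 0.46), and 0 of the 3 were called by edgeR or had an unadjusted p under 0.05.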

How the data were processed

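RNA-seq of primary hepatocytes was compared between 3 FOXA2f/f+CCl4 and 3 FOXA2H-KO+CCl4 libraries, grouped by their labels. Poly-A RNA was sequenced in pairs on a HiSeq; the submitters' processing notes name CASAVA 1.8, TopHat2 2.1.0, HTSeq, edgeR and mm10. The counts are whole numbers of reads per gene as deposited, without normalization. The authors' FPKM values are these counts divided by the total count and a gene length. Strand setting and annotation are not given in the sources used here. Symbols, positions and overlaps are from GENCODE M21 (GRCm38) and cover 34267 of 34745 genes.

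Counts were tested with edgeR 4.0.16 (TMM, filterByExpr, quasi-likelihood F test without a replicate block, Benjamini-Hochberg adjustment over 14417 genes). Calls needed an adjusted p under 0.05 and a fold of at least 2. The common biological coefficient of variation was 25.3%, and the tests were checked on simulated counts. Alternatives were DESeq2 1.42.0, edgeR's exact test, library size alone, upper quartile scaling, a filter of 1 count in any or of 10 counts in every library, limma 3.58.1 on log2(FPKM + 1) and log2(FPKM + 0.1), a replicate block, and each library left out. The members and lists were chosen with earlier results of these data known. Named are all members with every library, Foxa2, from each pathway list the 3 highest in CPM and the lowest and highest in log2 fold change, from each marker list its sum and its highest gene, and the 5 genes most like each class sum; Psmb9, Ptprc, Jak2, Ccr2, Siglech, Krt7, Elane, Ltf, Ngp, Ifng, H2-T3, H2-Q6, Gm20496 and Dexi fall outside this rule and were chosen after their values were seen. The counts of 2 replicates of a group differed by 35.9 to 123 times the degrees of freedom of a chi-square test, so none were duplicates. The labels do not say that libraries are separate mice, so p-values measure the spread between these libraries, which may be technical.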

Additional observations from a re-analysis of the deposited data

How the results depend on the processing

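The 10 MHC genes were called in 0 of the 15 alternative fits (smallest adjusted p 0.258). Of 148 alternative log2 fold changes 120 kept their direction and 28 turned. H2-K1 turned to 0.10 with library size alone and to 0.086 with limma on log2(FPKM + 1) and to 0.086 on log2(FPKM + 0.1). H2-Ab1 and H2-Eb1 turned to 0.36 and 0.32 with limma on log2(FPKM + 1) and to 0.43 and 0.35 on log2(FPKM + 0.1), and H2-Eb1 to 0.000665 with the exact test and 0.018 with library size alone. With library size alone the median of all genes moved from -0.01 to 0.10. With each library left out, the ranges were -0.23 to 0.11 for H2-K1, -0.12 to 0.17 for H2-D1, -0.16 to 0.27 for Tap1, -0.35 to 1.00 for H2-Aa, -0.43 to 1.05 for H2-Ab1, -0.41 to 0.95 for H2-Eb1 and -0.37 to 0.98 for Cd74, each class II maximum being without FOXA2f/f replicate 4. The number of genes called was 70 with DESeq2, 64 with the exact test, 2 with a filter of 1 count, 0 with library size alone and with both limma fits, and 0 to 6 with a library left out (6 without FOXA2f/f replicate 2). Foxa2 was past the threshold with DESeq2, the exact test and the filter of 1 count, and not with library size alone (-3.74) or limma (-1.95 and -3.38), and with a library left out it was between -4.17 and -3.63. Its call was lost in 5 of these 6 fits (adjusted p 0.0624 to 0.499, edgeR) and held without FOXA2f/f replicate 2 (0.0340). The class II to class I log2 difference was between -0.48 and 0.84 with a library left out. Ciita, with a mean under 1 FPKM, was not in the limma fits. The causes were not tested.

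Same-numbered replicates did not deviate together (r = -0.0688, 0.0262 and -0.226), so the numbers were not taken to pair the samples. With the replicate block 0 genes were called, Foxa2 was at -3.88, H2-Ab1 at 0.33 and H2-Eb1 at 0.28.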

Other observations

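H2-Ea-ps, which the annotation lists beside the class II genes and whose family codes for the alpha chain that pairs with the H2-Eb1 product, had 0 counts in all 6 libraries, where 3 counts would have been 0.106 to 0.143 CPM of the total count. H2-Eb1 in the same libraries was at 9.10 to 52.4 CPM. The gene was looked at after the values of the class II chains had been seen.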
